A study of Mus musculus with 10 samples.

Results

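Immediate early genes are switched on within minutes in stimulated cells, before any new protein is made. In neurons, calcium entry and cyclic AMP act through kinases on transcription factors that wait on these promoters, chiefly CREB and the serum response factor. The products are transcription factors (the AP-1, EGR, NR4A and KLF families), inhibitors that end the signal, and proteins that act at synapses, and in the hypothalamus Fos in particular is widely used as a mark of recently active neurons. The 35 genes described here are a listed set of such activity-dependent genes, each read from the brightest of the probe sets that a platform annotation pairs with that gene alone. All 35 had exactly 1 such probe set, out of 18820 genes with a probe set of their own.

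The samples were hypothalami of male CDF1 mice (a BALB/c by DBA/2 cross), aged 10 to 11 weeks. Tumour-bearing mice had been inoculated under the skin of the flank with 1000000 C26 cells, a mouse colon adenocarcinoma line used as a model of cancer cachexia, in 0.2 ml of balanced salt solution, and control mice had received 0.2 ml of the solution without cells. All were killed on day 20. RNA of 5 single tumour-bearing mice and 3 single control mice was hybridised on 1 array per mouse, and 1 further array per group held RNA pooled from 5 tumour-bearing and from 4 control mice. Because the pools may share mice with the single arrays, which the labels leave unsaid, they are given as values beside the single mice and were not tested.

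Levels are RMA values on a log2 scale, so a difference of 1 is a doubling, and a level is comparable between arrays for the same gene but not between genes. A probe set was tested if its level exceeded 4.32, which is 20 before the logarithm, in 3 or more of the 8 single mice, and 34 of the 35 genes passed. The exception was Ier2, an early-response nuclear protein gene, which lay between 3.43 and 3.72 in tumour-bearing mice and between 3.44 and 3.79 in controls. Groups were compared with limma over all 22837 tested probe sets, with Benjamini-Hochberg adjusted p-values and a threshold of 0.05.

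The arrays correlated at 0.980 to 0.989 with each other over the tested probe sets, and all 14 hypothalamic marker genes (vasopressin, oxytocin, orexin and others) were above the filter level on at least 1 array. Their summed linear level was 4810 to 6393 in tumour-bearing mice and 4500 to 4872 in controls. Of the 14 differences 12 were above 0 and 2 below. At an unadjusted p under 0.05, 5 were higher (4.71% of all tested probe sets were) and 0 lower, and 0 passed the threshold (limma). Several lists of markers of neighbouring regions and of other cell types had other ranges in tumour-bearing than in control mice, with 0 of their genes past the threshold (limma). The 12 markers of midbrain dopamine neurons had a summed linear level of 1240 to 3028 in tumour-bearing mice and 3138 to 3652 in controls. The 6 measured of 8 markers of striatum summed to 871 to 1325 in tumour-bearing mice, with mouse 1 highest, and 815 to 821 in controls. The 6 measured of 8 oligodendrocyte markers summed to 2941 to 4280 in tumour-bearing mice and 4284 to 4566 in controls. The 7 measured of 8 pituitary markers summed to 208 to 1932 in tumour-bearing mice and 155 to 305 in controls. Among them Gh, growth hormone, had a level of 10.45 and 10.48 in tumour-bearing mice 3 and 4 and 9.82 in the tumour-bearing pool, against 4.76 to 5.51 in the other 3 tumour-bearing mice, 4.21 to 4.45 in control mice and 4.37 in the control pool. The 4 measured of 5 raphe serotonin neuron markers summed to 78.3 to 97.8 in tumour-bearing mice and 84.7 to 236 in controls, and the 9 measured of 10 microglia markers to 813 to 994 in tumour-bearing mice and 930 to 1028 in controls. The pituitary marker Tshb and the microglia marker Aif1 were below the filter level in every single mouse, and no other defining marker of these 6 lists was. The 7 astrocyte markers summed to 5087 to 5490 in tumour-bearing mice and 5398 to 5702 in controls. For the 5 measured of 6 general neuron markers the sums were 12692 to 13078 in tumour-bearing mice and 13084 to 13403 in controls. Their mean log2 levels overlapped, at 10.925 to 10.983 in tumour-bearing mice and 10.937 to 10.980 in controls. The median difference of these markers was -0.0098, and 0 of the 5 had an unadjusted p under 0.05 (limma). What part these differences have in the levels below was not tested. Some values are also given with the mean of the midbrain markers as a covariate or without both tumour-bearing mice 3 and 4. That mean was 6.04 to 7.17 in tumour-bearing and 7.15 to 7.34 in control mice. A fit with it therefore cannot separate it from the group difference.

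None of the 34 tested immediate early genes passed the threshold in either direction (limma, smallest adjusted p = 0.112). Over all tested probe sets 0.0569% were called higher and 0% lower, 13 and 0 in number. Those counts were 33 higher and 36 lower without tumour-bearing mouse 2, and 39 higher and 33 lower with the test restricted to probe sets that the annotation pairs with 1 gene. Before adjustment, 6 of the 34 had p under 0.05 and were lower in tumour-bearing mice, namely Nr4a2, Nr4a3, Egr1, Fos, Klf10 and Arc, against 5.82% of all tested probe sets, and 1, Rgs2, was higher, against 4.71%. In 5 of the 34 every tumour-bearing mouse lay below every control mouse (Nr4a2, Nr4a3, Fos, Klf10 and Egr4), against 4.17% of all tested probe sets, and in 0 did every tumour-bearing mouse lie above every control, against 3.28%. Below 0 were 23 differences and above it 11, where 51.4% of all tested probe sets were below 0, and the median difference was -0.07 for the 34 genes and -0.0031 for all tested probe sets. Nr4a2, Nr4a3, Egr1 and Fos kept an unadjusted p under 0.05 in each of the 22 alternatives in which they were tested (21 for Fos), also without both tumour-bearing mice 3 and 4, where their differences were -0.44, -0.39, -0.38 and -0.59. Klf10 lost it in 1, Rgs2 in 5 and Arc in 10. The 6 lower genes stood at 0.698 to 0.804 times the control level, while 17 of the 34 genes differed by less than 0.15 on the log2 scale. In RNA of whole tissue, fewer cells of a type and less RNA per cell cannot be told apart.

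**Figure D1:**
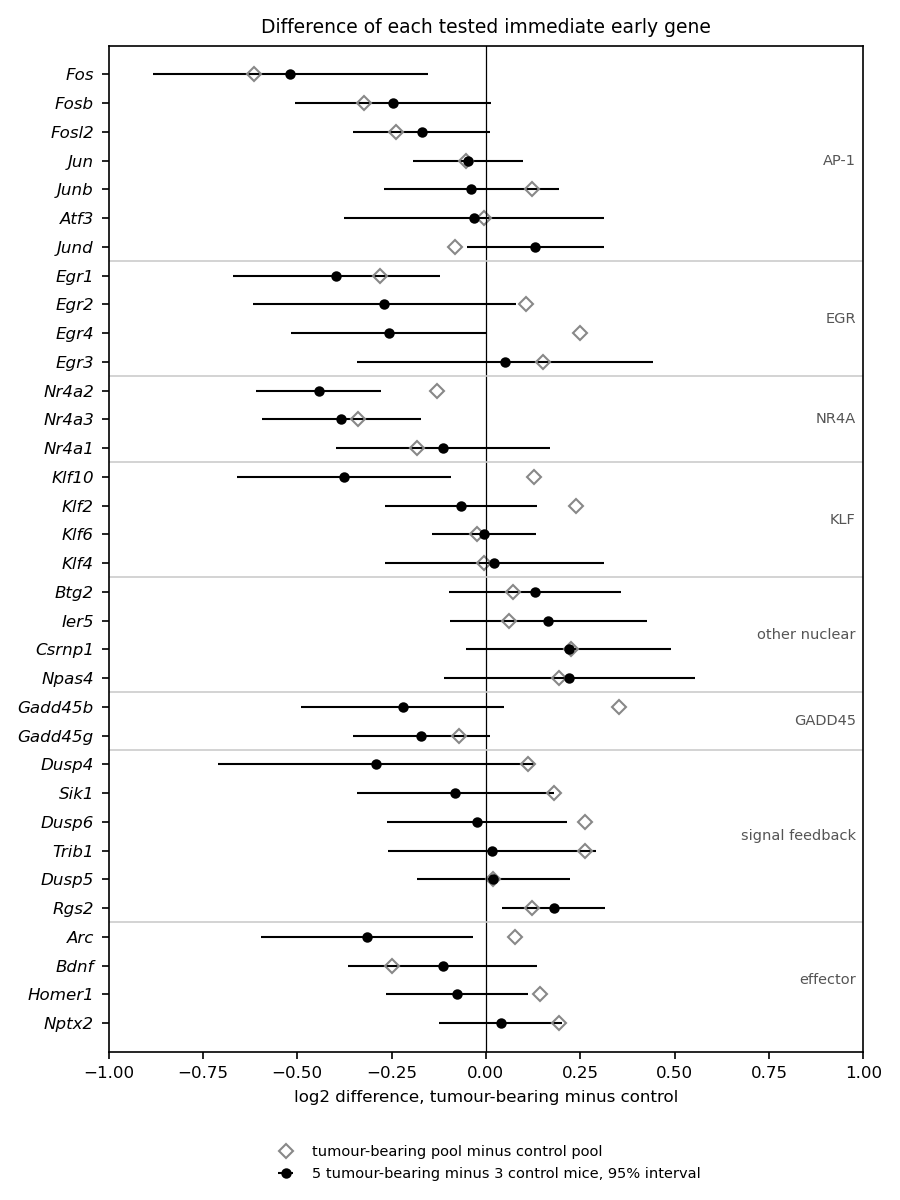
Difference of each of the 34 tested genes on the log2 scale, tumour-bearing minus control, grouped by the kind of product. Black points with bars are the 5 tumour-bearing against the 3 control mice with the 95% interval of limma, and open diamonds are the tumour-bearing pool minus the control pool. Fos, Nr4a2, Egr1, Nr4a3 and Klf10 lie furthest below 0, Npas4, Csrnp1 and Rgs2 furthest above it, and the pool values of Klf10, Arc and Egr4, among others, lie on the other side of 0 from the single mice.

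The promoters of 4 genes at the top of this order are shown because calcium and cyclic AMP signals are known to reach such genes through short elements near their starts. The genes were taken by smallest p among those with an entry in the RefSeq table. Each window runs from 250 bases before to 50 bases after the annotated start on GRCm38.p6. Nr4a2 lies on the minus strand at chr2:57123954-57124253, Nr4a3 on the plus strand at chr4:48045055-48045354, Fos on the plus strand at chr12:85473640-85473939 and Rgs2 on the minus strand at chr1:144004100-144004399. Capitals mark TGACG, the half-site of the cyclic AMP response element that CREB binds, and TATAAA, the letters of a TATA box, found on either strand (CGTCA and TTTATA when read on the other strand). The other motifs searched, named below, had no match in these 4 windows.
Nr4a2: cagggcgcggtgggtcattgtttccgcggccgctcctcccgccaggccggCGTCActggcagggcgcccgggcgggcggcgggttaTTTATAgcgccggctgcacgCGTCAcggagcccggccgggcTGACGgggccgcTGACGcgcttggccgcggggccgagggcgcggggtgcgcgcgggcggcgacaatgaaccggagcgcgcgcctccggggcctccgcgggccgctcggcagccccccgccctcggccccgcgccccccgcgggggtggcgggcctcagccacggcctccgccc
Nr4a3: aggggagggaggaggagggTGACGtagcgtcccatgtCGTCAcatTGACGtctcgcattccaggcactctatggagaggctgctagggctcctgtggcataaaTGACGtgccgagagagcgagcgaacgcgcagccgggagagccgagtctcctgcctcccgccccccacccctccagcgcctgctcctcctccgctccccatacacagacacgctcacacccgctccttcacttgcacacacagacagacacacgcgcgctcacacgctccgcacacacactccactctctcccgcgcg
Fos: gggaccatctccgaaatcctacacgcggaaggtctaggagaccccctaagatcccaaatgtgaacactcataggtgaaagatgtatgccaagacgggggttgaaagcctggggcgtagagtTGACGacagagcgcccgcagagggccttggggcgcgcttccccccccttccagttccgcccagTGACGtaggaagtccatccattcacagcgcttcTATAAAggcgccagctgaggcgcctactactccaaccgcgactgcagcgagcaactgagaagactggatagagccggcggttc
Rgs2: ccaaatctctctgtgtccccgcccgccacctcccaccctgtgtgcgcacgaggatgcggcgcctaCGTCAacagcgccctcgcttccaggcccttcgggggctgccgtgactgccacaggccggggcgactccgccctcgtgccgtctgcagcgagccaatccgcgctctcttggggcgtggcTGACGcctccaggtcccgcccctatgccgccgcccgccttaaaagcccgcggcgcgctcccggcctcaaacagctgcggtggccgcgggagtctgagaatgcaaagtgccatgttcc
Nr4a2 and Nr4a3 each held 4 half-sites in this window, and Fos and Rgs2 held 2 each. In Fos the nearer half-site began 66 bases before the start and its TATA box 33 bases before it. In Rgs2 the nearer half-site began 67 bases before the start. Of the 35 genes 26 had at least 1 window in the table, 40 windows in all, and 23 of the 40 (57.5%) held TGACG on either strand, against 20.8% of all 32851 windows. The windows of the set were also richer in G and C, with a median of 62.2% against 52.7%, and held a median of 21 CG dinucleotides against 7, and TGACG contains a CG. The full element TGACGTCA, which contains the half-site, was in 1 window, that of Btg2 (2.50% against 1.79% of all windows). The CArG box bound by the serum response factor was in 5 windows of Dusp5 and Egr2 (12.5% against 1.63%) and, with only the first listed window of each gene, in 1 of 26 (3.85%), since Egr2 has several windows. Counted that way TGACG was in 16 of 26 (61.5%). The EGR site GCGTGGGCG and the NR4A site AAAGGTCA were in none of the 40 windows (0.612% and 1.51% of all windows), the AP-1 site TGANTCA was in 2 (5.00% against 7.81%) and TATAAA in 5 (12.5% against 13.6%). These counts describe letters in short windows, and elements further than 250 bases before the start were not searched. Half-sites stood in Nr4a2, Nr4a3 and Fos, which were lower, and in Rgs2, which was higher. The other lower genes, Egr1, Klf10 and Arc, had no window in the table and were not searched.

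The NR4A family, orphan nuclear receptors that act without a known natural ligand, held the genes with the smallest p. Nr4a2, also called Nurr1 and required for midbrain dopamine neurons, had levels of 7.67, 7.95, 7.68, 7.90 and 7.73 in tumour-bearing mice 1 to 5, against 8.28, 8.23 and 8.19 in control mice 1 to 3. Every tumour-bearing mouse was lower than every control, by a mean of -0.44 ± 0.07 (SE) on the log2 scale, or 0.735 times the control level (limma adjusted p = 0.112, over alternatives 0.0201 to 0.941). Nr4a2 passed the threshold without tumour-bearing mouse 2 (-0.49, limma adjusted p = 0.0302) and with the test restricted to probe sets of 1 gene (-0.44, limma adjusted p = 0.0201). With the mean of the midbrain dopamine neuron markers as a covariate its difference was -0.30 (limma adjusted p = 0.941). Tumour-bearing mouse 2 had the highest Nr4a2 of its group and also the highest midbrain marker mean, 7.17. The marker means of mice 1, 3, 4 and 5 were 6.62, 6.04, 6.55 and 6.61, and those of controls 7.15 to 7.34. Of mice 1, 3, 4 and 5, mouse 1 had the lowest Nr4a2 and mouse 4 the highest. In the pools the Nr4a2 level was 7.65 for tumour-bearing and 7.78 for control mice, a difference of -0.13. The midbrain marker means of the pools were 7.036 and 7.115. What part the midbrain markers have in the Nr4a2 levels was not tested.

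Nr4a3, also called NOR-1, had levels of 5.88, 5.93, 6.02, 5.92 and 6.02 in tumour-bearing mice 1 to 5, against 6.56, 6.25 and 6.20 in control mice 1 to 3. The tumour-bearing values were close together and all below the controls, of which control 1 was well above the other 2. The mean difference was -0.38 ± 0.09 (SE), or 0.767 times the control level (limma adjusted p = 0.251), and it was -0.27 without control 1. Its pool difference was -0.34, with 5.96 in tumour-bearing and 6.30 in control RNA. Nr4a1, also called Nur77, was spread more widely in tumour-bearing mice, at 6.94, 6.62, 6.97, 6.73 and 7.25, against 7.04, 6.95 and 7.06 in controls. The Nr4a1 groups overlapped, with tumour-bearing mouse 5 above all controls, and the difference of -0.11 had a 95% interval of -0.40 to 0.17. It was -0.04 without tumour-bearing mouse 2 and -0.20 without mouse 5.

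The AP-1 family pairs FOS with JUN proteins. Fos had levels of 4.63, 4.68, 5.22, 4.86 and 5.24 in tumour-bearing mice 1 to 5, against 5.46, 5.44 and 5.44 in control mice 1 to 3. The controls spanned 0.021, all tumour-bearing mice were below them, and mice 3 and 5 were nearest to the controls. The mean difference was -0.52 ± 0.16 (SE), the furthest below 0 of the 34, or 0.698 times the control level (limma adjusted p = 0.326). The lowest Fos level, 4.63 in tumour-bearing mouse 1, was not far above the filter level of 4.32. Fos was not tested with the filter at 50, which left 21 of the 22 alternatives. What part a low level has in its difference was not tested. Fos was also lower in the pools, with 5.11 in tumour-bearing and 5.72 in control RNA, a difference of -0.61. With the midbrain covariate the Fos difference was -0.83 ± 0.22 (SE, limma adjusted p = 0.865). Because that covariate barely overlapped between the groups, this fit cannot separate it from the group difference.

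Fosb had levels of 5.70, 5.42, 5.43, 5.56 and 5.20 in tumour-bearing mice 1 to 5, against 5.65, 5.77 and 5.70 in controls. Only tumour-bearing mouse 1 reached the controls, and the difference was -0.25 ± 0.12 (SE) with a 95% interval of -0.51 to 0.01. Fosl2, another member of the FOS family, differed by -0.17 (95% interval -0.35 to 0.01). The pool differences of Fosb and Fosl2 were -0.32 and -0.24.

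The JUN side of the family showed smaller differences. Junb had levels of 5.72, 5.73, 5.70, 5.56 and 5.94 in tumour-bearing mice 1 to 5, against 5.91, 5.67 and 5.73 in controls, and the groups lay across each other. Its difference was -0.04 (95% interval -0.27 to 0.19), and it was 0.03 without control 1. Jun differed by -0.05 (95% interval -0.19 to 0.10) and Atf3, a stress-induced partner of JUN proteins, by -0.03 (95% interval -0.38 to 0.31). Jund, the least inducible JUN gene, differed by 0.13, and by 0.02 without control 1, whose level of 7.58 was far below the 7.90 and 7.94 of the other controls. Over the 7 genes of the family 6 differences were below 0 and 1 above, and Fos was the 1 with an unadjusted p under 0.05.

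**Figure D2:**
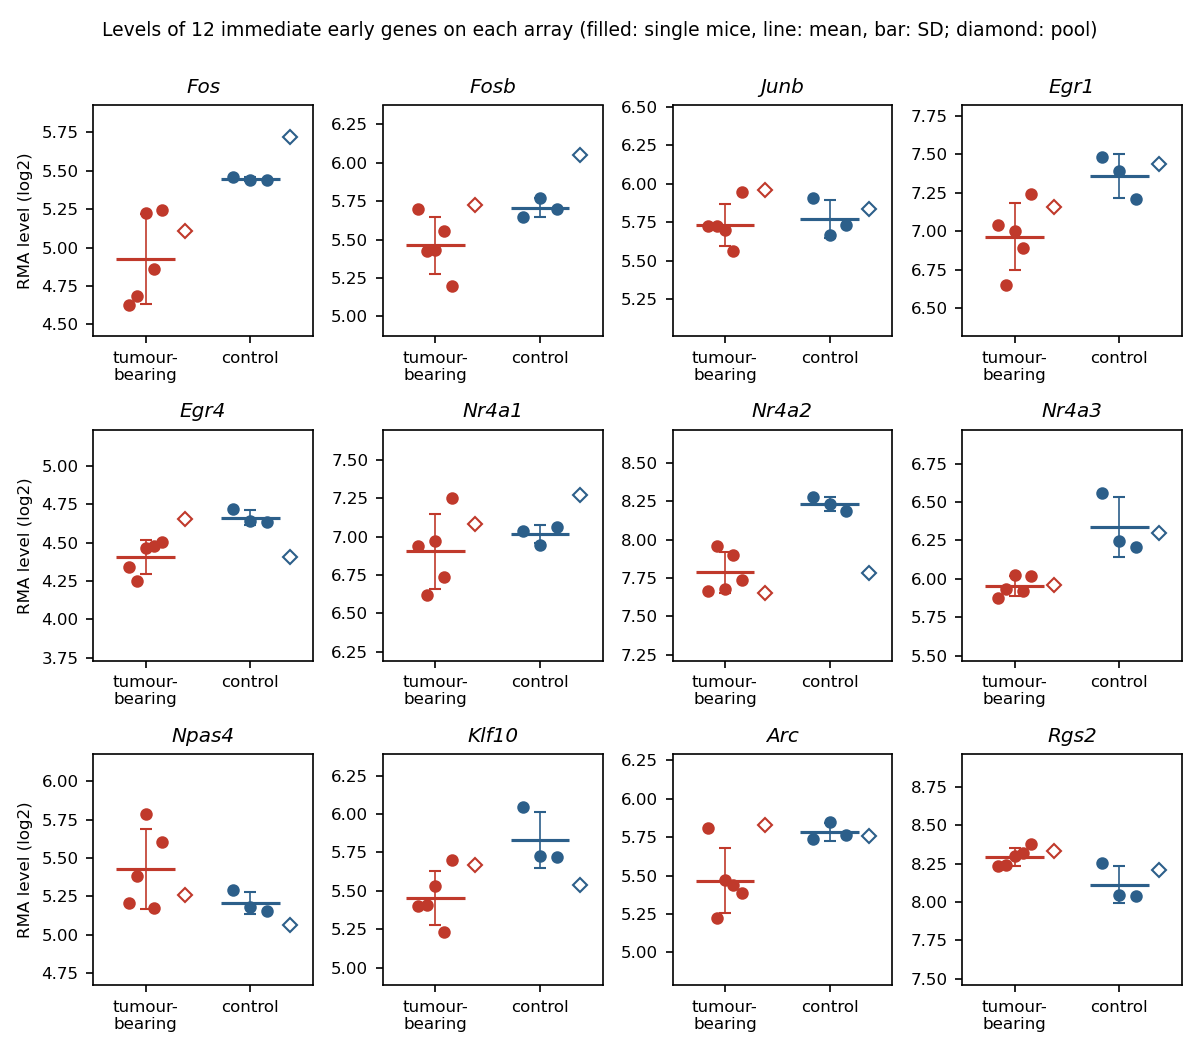
Levels on the log2 RMA scale of 12 of the genes, each panel spanning 1.5 units, with tumour-bearing mice on the left in red and controls on the right in blue. Filled points are single mice (n = 5 and n = 3), horizontal lines their means, bars the SD, and open diamonds the pools. The groups are apart for Fos, Egr4, Nr4a2, Nr4a3 and Klf10 and overlap for the other 7, and the control pool lies below the tumour-bearing pool for Klf10, Egr4, Arc, Junb, Npas4 and Rgs2.

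The EGR family are zinc finger transcription factors induced by synaptic activity and growth factors. Egr1, also called Zif268, had levels of 7.04, 6.65, 7.00, 6.89 and 7.24 in tumour-bearing mice 1 to 5, against 7.49, 7.39 and 7.21 in control mice 1 to 3. Tumour-bearing mouse 5 lay just above control 3, and the other 4 tumour-bearing mice were below all controls. The difference was -0.40 ± 0.12 (SE), or 0.760 times the control level (limma adjusted p = 0.321), and in the pools it was -0.28. Egr4 had levels of 4.34, 4.25, 4.47, 4.48 and 4.50 in tumour-bearing mice, against 4.72, 4.64 and 4.63 in controls, so the groups did not overlap. These values are close to the filter level, the difference was -0.26 ± 0.12 (SE) with limma adjusted p = 0.480, and the pools ran the other way by 0.25. Egr2 was above the filter level in 1 tumour-bearing mouse and 2 controls, and it differed by -0.27 (95% interval -0.62 to 0.08), or by -0.12 with values under the filter level raised to it. Egr3 differed by 0.05 (95% interval -0.34 to 0.44), with its highest level, 5.54, in tumour-bearing mouse 1.

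The KLF genes encode zinc finger factors of which Klf2 and Klf4 are also prominent in blood vessel lining cells. Klf10, first known as a TGF-beta-inducible early gene, had levels of 5.40, 5.41, 5.53, 5.23 and 5.70 in tumour-bearing mice 1 to 5, against 6.04, 5.73 and 5.72 in control mice 1 to 3. The groups were separated by a narrow gap between tumour-bearing mouse 5 and control 3, and control 1 lay well above. The difference was -0.38 ± 0.13 (SE), or 0.770 times the control level (limma adjusted p = 0.357), and without control 1 it was -0.27 and its unadjusted p was not under 0.05. The pools ran the other way, at 5.66 in tumour-bearing and 5.54 in control RNA. Klf2 differed by -0.07, Klf4 by 0.02 and Klf6 by -0.0053 (95% interval -0.14 to 0.13), the Klf6 difference being the smallest in size of the 34.

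Among genes whose products act at synapses, Arc encodes a dendritic protein that promotes removal of AMPA receptors from the membrane. Its levels were 5.81, 5.23, 5.47, 5.44 and 5.39 in tumour-bearing mice 1 to 5, against 5.74, 5.85 and 5.76 in controls. Tumour-bearing mouse 1 lay among the controls and the other 4 were below all of them. The Arc difference was -0.32 ± 0.13 (SE), or 0.804 times the control level (limma adjusted p = 0.418), and -0.40 without mouse 1. Its unadjusted p was not under 0.05 without any 1 of the controls, without tumour-bearing mouse 2, 4 or 5, without both mice 3 and 4, with the pools added, with the replicate block or with the midbrain covariate (-0.25 to -0.44 over all alternatives). In the pools Arc was 5.83 in tumour-bearing and 5.75 in control RNA. Bdnf, a growth factor of neurons, differed by -0.11 (95% interval -0.37 to 0.14). Homer1, a scaffold of the postsynaptic density, differed by -0.08 (95% interval -0.27 to 0.11), and Nptx2, a secreted pentraxin that gathers AMPA receptors, by 0.04 (95% interval -0.12 to 0.20).

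The 4 tested nuclear protein genes placed outside the AP-1, EGR, NR4A, KLF and GADD45 families lay on the other side of 0. Npas4, a factor that in neurons is induced selectively by calcium entry, had levels of 5.21, 5.38, 5.78, 5.17 and 5.60 in tumour-bearing mice 1 to 5, against 5.29, 5.18 and 5.16 in controls. Mice 2, 3 and 5 were above all controls, mouse 1 lay among them and mouse 4 was level with the 2 lower controls. The difference was 0.22 ± 0.15 (SE) with a 95% interval of -0.11 to 0.55 (limma adjusted p = 0.649), 0.13 without mouse 3 and -0.02 with the midbrain covariate. Csrnp1, a nuclear protein gene, differed by 0.22, Ier5 by 0.17 (0.07 without control 2) and Btg2, an antiproliferative gene, by 0.13. All 4 were thus above 0, where 51.4% of all tested probe sets were below 0, and 0 of 4 had an unadjusted p under 0.05 (limma). With the midbrain covariate Btg2, like Npas4, was below 0, at -0.0030. The DNA-damage-inducible genes Gadd45b and Gadd45g differed by -0.22 and -0.17, both with 95% intervals that include 0.

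Of genes whose products limit signalling, Rgs2, which speeds the switching off of G proteins, had levels of 8.23, 8.24, 8.30, 8.32 and 8.38 in tumour-bearing mice 1 to 5, against 8.25, 8.05 and 8.04 in control mice 1 to 3. All tumour-bearing mice were above controls 2 and 3, and mice 1 and 2 were just below control 1. The difference was 0.18 ± 0.06 (SE), or 1.13 times the control level (limma adjusted p = 0.359), 0.12 in the pools and 0.12 with the midbrain covariate. The unadjusted p of Rgs2 was not under 0.05 with that covariate, with the replicate block, without control 2, without control 3 or without both tumour-bearing mice 3 and 4. The MAP kinase phosphatase genes Dusp4, Dusp5 and Dusp6 differed by -0.29, 0.02 and -0.02. The Dusp4 difference was -0.46 without control 1 and -0.20 without control 2. Sik1, a kinase that restrains the CREB coactivators, differed by -0.08 (95% interval -0.34 to 0.18) and Trib1, a pseudokinase, by 0.02 (95% interval -0.26 to 0.29).

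The genes varied among tumour-bearing mice somewhat more than other probe sets did. The median SD over the 5 tumour-bearing mice was 0.145 for the 34 genes and 0.112 for all tested probe sets, and over the 3 controls it was 0.120 and 0.106. The 34 genes also lay at a lower level, with a median mean level of 5.67 against 6.73 for all tested probe sets, and what part level has in the SD was not tested. Tumour-bearing mouse 5 was the highest of its group in 15 of 34 genes (44.1%, against 22.5% of all tested probe sets), among them Fos, Egr1, Nr4a1, Junb, Atf3 and Sik1. Tumour-bearing mouse 1 was the highest in 12 (35.3%, against 21.8%), among them Arc, Egr2, Egr3, Fosb and Dusp4. Mice 2 and 4 were each the lowest in 10 (29.4%, against 17.1% and 18.4%).

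The mean of the 34 genes, each centred on its mean over the 8 mice, was 0.02, -0.11, -0.04, -0.11 and 0.06 in tumour-bearing mice 1 to 5, against 0.10, 0.05 and 0.04 in control mice 1 to 3. Tumour-bearing mouse 5 thus lay among the controls and the other 4 below them. The tumour-bearing pool was at 0.10 and the control pool at 0.08. In the pools 14 of the 34 genes were lower in tumour-bearing than in control RNA, where 52.6% of all tested probe sets were, and the median pool difference was 0.07 for the 34 genes and -0.0097 for all tested probe sets. The striatum marker mean was 7.51 in tumour-bearing mouse 1 and 7.53 in the tumour-bearing pool, against 6.78 to 6.96 in the other tumour-bearing mice, 6.74 to 6.78 in the control mice and 6.95 in the control pool. Arc and Egr3 were also high on those 2 arrays, with Arc at 5.81 and 5.83 and Egr3 at 5.54 and 5.62. Arc was as high, at 5.85, in control 2, whose striatum marker mean was 6.78, and the control pool had Arc at 5.75 and Egr3 at 5.47. What part the striatum markers have in these levels was not tested.

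**Figure D3:**
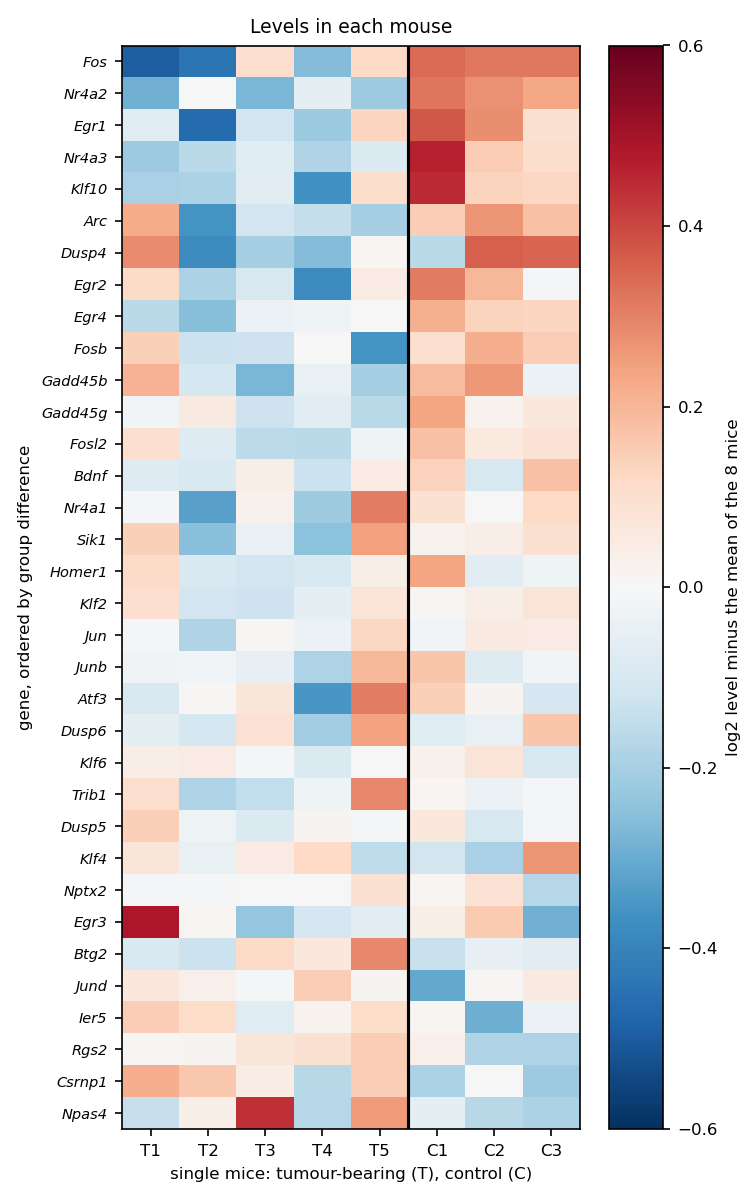
Levels of the 34 tested genes in each mouse as the log2 level minus the gene's mean over the 8 mice, red above and blue below, with tumour-bearing mice T1 to T5 left of the line and controls C1 to C3 right of it. Genes are ordered by the group difference, with Fos at -0.52 at the top and Npas4 at 0.22 at the bottom. The upper rows are blue in most tumour-bearing mice, while T1 is red for Arc, Dusp4 and Egr3 and T5 for Nr4a1, Sik1, Atf3 and Trib1.

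**Figure D4:**
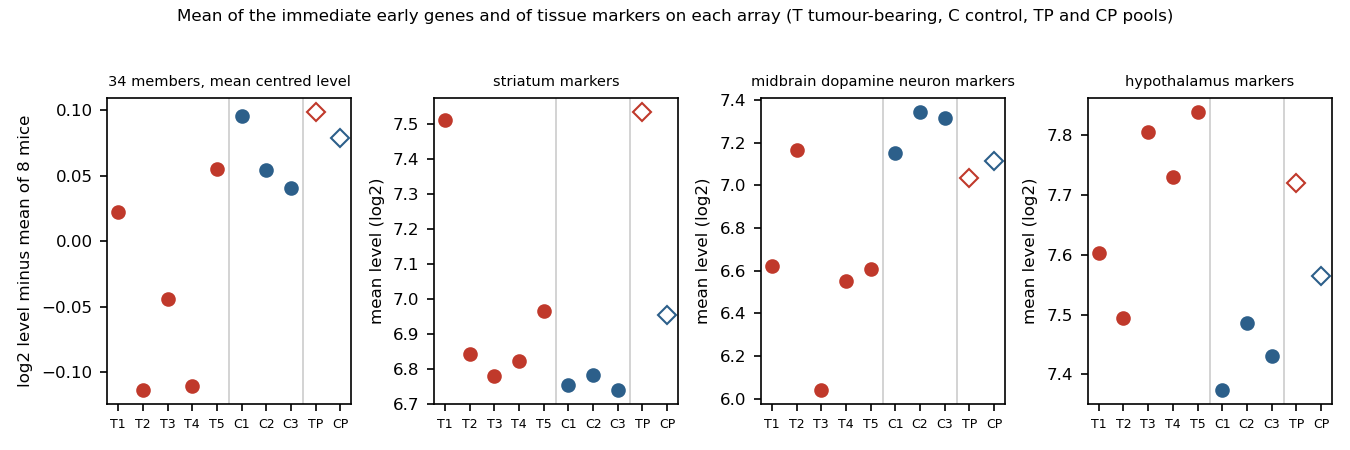
Mean of the 34 genes on each array, as log2 level minus the mean of the 8 mice, beside the mean log2 level of the markers of striatum, midbrain dopamine neurons and hypothalamus. Red is tumour-bearing and blue control, filled points are single mice and open diamonds (TP, CP) the pools. T1 and the tumour-bearing pool stand apart in striatum markers, T3 is lowest in midbrain markers at 6.04, and tumour-bearing mice lie at or above the highest control in hypothalamus markers, at 7.49 to 7.84 against 7.37 to 7.49.

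The signalling that leads to these promoters was described by 38 listed genes of receptors, channels, kinases, transcription factors and corepressors, of which 32 had a probe set of their own and all 32 were tested. None passed the threshold (limma), 2 were lower and 2 higher at an unadjusted p under 0.05 (5.82% and 4.71% of all tested probe sets were), and the median difference was 0.00065, against -0.0031 for all tested probe sets. Adcy8, a calcium-stimulated adenylyl cyclase, was 7.83 ± 0.06 (SD, n = 5) in tumour-bearing mice and 8.05 ± 0.04 (SD, n = 3) in controls. Every tumour-bearing mouse was below every control for Adcy8 (-0.21, limma adjusted p = 0.217), and the pool levels were 7.69 in tumour-bearing and 8.07 in control RNA. Nab1, a corepressor of EGR proteins, differed by -0.14 (limma adjusted p = 0.391), also without overlap between the groups. Mrtfb, a coactivator of the serum response factor, differed by 0.17 (limma adjusted p = 0.365) and Elk1, which binds beside it, by 0.13 (limma adjusted p = 0.418).

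A second list held 39 further immediate early and delayed activity genes, of which 35 had a probe set of their own and 32 were tested. None passed the threshold (limma), 2 were lower and 2 higher at an unadjusted p under 0.05, again beside 5.82% and 4.71% of all tested probe sets. Of the 32 differences 22 were above 0 and 10 below it, where 51.4% of all tested probe sets were below 0, and the median was 0.03. Cdkn1a, the cell cycle inhibitor p21, was 8.44 ± 0.33 (SD, n = 5) in tumour-bearing mice and 7.84 ± 0.01 (SD, n = 3) in controls, with every tumour-bearing mouse above every control (0.60, limma adjusted p = 0.277). Plk3, a stress-responsive kinase, was 6.48 ± 0.05 (SD, n = 5) in tumour-bearing mice and 6.70 ± 0.05 (SD, n = 3) in controls, again without overlap (-0.22, limma adjusted p = 0.280). Vgf, a secreted neuropeptide precursor, differed by 0.24 (limma adjusted p = 0.413) and Spry4, an inhibitor of receptor tyrosine kinase signalling, by -0.23 (limma adjusted p = 0.468).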

How the data were processed

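Hypothalamus RNA of 8 single mice and 2 pools was measured on Affymetrix whole-transcript arrays, 1 array per sample. The deposited values are log2 levels; the authors used RMA, according to the submitters' processing notes; version, probe set definition and build are not given in the sources used here, and the log2 scale was inferred from the values. Array medians were 5.27 to 5.32. RMA gives all arrays a common distribution and compresses folds, and precision is limited by the number of arrays. Of 35556 probe sets 21218 had 1 gene, 1881 several and 12457 none in the platform annotation.

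The single mice were compared with limma 3.58.1 in R 4.3.3 (lmFit, eBayes with trend) over the 22837 probe sets above the filter, and the test was run on simulated data with known changes too. The members and lists were chosen with earlier results of these data known, so no p-value was adjusted over a list alone. All 35 members are accounted for. Values on each array are given for 9 preset genes, for others with an unadjusted p under 0.05 and, chosen after its values were seen, for Egr4. From each other list the 4 genes of smallest p are named. Promoters come from RefSeq (GRCm38.p6), for the genes of smallest p that had an entry and could be printed. Alternatives were the filter, variance model, array weights, normalization, replicate block, pools, probe sets, a midbrain covariate and leaving out mice. The replicate numbers name separate mice, and the main fit used no pairing. Deviations of same-numbered mice correlated at -0.0020, 0.0084 and 0.0089, and those of other pairs at -0.041 to 0.030. These values show no pairing but could miss a weak one.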

Additional observations from a re-analysis of the deposited data

Results flagged for a closer look

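Of the 34 tested genes, 1 had a tumour-bearing mouse apart from its group when the gap was set against the group's range. The range was small: the SD of this gene, Nptx2, over the 5 tumour-bearing mice was 0.042, against a median of 0.145 for the 34 genes. Control 2 was also at 6.58. Nptx2 was 6.58 in tumour-bearing mouse 5, with 6.50 next below it and the gap between them 0.851 of the group's whole range, above Dixon's critical value for 5 samples. Chance alone gives a gap above that critical value, 0.71, in about 1 of 20 groups, and 34 groups were checked.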

How the results depend on the processing

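The median difference of the 34 genes stayed below 0 in all 22 alternatives, at -0.10 to -0.04 with 1 mouse left out and -0.03 without both tumour-bearing mice 3 and 4. Members called lower numbered 0 with the exceptions of 1 (Nr4a2) with only probe sets of 1 gene and 1 (Nr4a2) without tumour-bearing mouse 2, so 0 to 1 with 1 mouse left out, and 0 were called higher. At an unadjusted p under 0.05, 5 to 9 were lower with 1 mouse left out and 10 without the intensity trend. The count called over all probe sets, 13, was 5 with no filter, 23 with the filter at 50, 4 without the trend, 24 with array weights, 72 with only probe sets of 1 gene, 0 with the replicate block, 0 with the midbrain covariate and 0 without both tumour-bearing mice 3 and 4. It was 2 to 69 with 1 mouse left out: 2 without control 2 or 3, 6 without tumour-bearing mouse 1 or 3, 4 without mouse 4, 5 without mouse 5 and 69 without mouse 2. The replicate block has few degrees of freedom left. With it the differences were -0.60 for Fos and -0.46 for Nr4a2 (limma adjusted p = 0.747 and 0.631). The cause of these shifts was not tested. With only probe sets of 1 gene the number of tests was 14809 in place of 22837. The SE of Nr4a2 changed too, from 0.0739 to 0.0702, and what part each had in the calls was not tested. The direction held for 22 of the 34 genes in the alternatives that tested them, which were all 22 for 14 genes and 17 to 21 for the other 8 (Egr2 the fewest). It turned for 12, all within 0.08 of 0 when it did. With array weights Egr3 was -0.012 and Trib1 -0.0021. Klf6 was 0.0067 when quantile normalized again, 0.0054 when median centred and 0.022 with the replicate block, where Trib1 was -0.067. With the pools added Dusp6 was 0.052 and Klf4 -0.014. With the midbrain covariate Npas4 was -0.015, Btg2 -0.0030, Klf4 -0.027, Klf6 0.032 and Trib1 -0.0073. Without both tumour-bearing mice 3 and 4 Junb was 0.029, Dusp6 0.011, Klf4 -0.028, Klf6 0.026 and Atf3 0.052. With 1 mouse left out the ranges were -0.092 to 0.031 for Junb, -0.078 to 0.146 for Egr3, -0.021 to 0.057 for Dusp5, -0.087 to 0.050 for Dusp6, -0.067 to 0.161 for Klf4, -0.054 to 0.031 for Klf6, -0.111 to 0.053 for Atf3, -0.134 to 0.018 for Homer1, -0.034 to 0.093 for Nptx2 and -0.055 to 0.065 for Trib1.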
